A study of Homo sapiens with 4 samples.

Results

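Acetylcholine receptors of sympathetic neurons and the enzyme that breaks acetylcholine down were followed in SH-SY5Y cells with and without sodium nitroprusside (SNP). The genes were 10, chosen by name from the 58243 in the tables: the nicotinic subunits CHRNA3, CHRNA5, CHRNA7, CHRNB2 and CHRNB4, the muscarinic receptors CHRM1, CHRM2, CHRM3 and CHRM4, and the esterase gene ACHE. SH-SY5Y is an established human line, a cloned subline of a neuroblastoma, which is a tumour of the sympathetic lineage, so all libraries come from a single genetic background. The control group held 2 libraries, a and b, of untreated cells. The SNP group held 2 libraries, a and b, of cells exposed for 8 h to SNP, a compound that releases nitric oxide; their state is labelled as oxidized, and which of the several doses was sequenced is not given. The treatment protocol, shared by all libraries, speaks of cells differentiated with retinoic acid. Whether a and b were separate cultures is not stated. The p-values therefore measure only the spread between these libraries, which may be technical.

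Nicotinic receptors are ion channels built from several subunits around a pore that opens when acetylcholine binds. In autonomic ganglia the main channel pairs alpha3 (CHRNA3) with beta4 (CHRNB4), with alpha5 (CHRNA5) or beta2 (CHRNB2) as further partners, while alpha7 (CHRNA7) can form a channel by itself and passes much calcium. Muscarinic receptors are G protein-coupled: M1 and M3 act through Gq and phospholipase C, and M2 and M4 act through Gi and Go to lower cyclic AMP and open potassium channels. Acetylcholinesterase ends the signal, and in neurons it is held at the membrane by the anchor protein encoded by PRIMA1.

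The stretches of DNA before the start sites of 5 of these genes are shown here, since they include both receptor genes that fell (CHRNA7 and CHRM2) and 3 that did not pass the test. Each is the 200 bases from 250 to 51 before the RefSeq start, 5′ to 3′ on the gene's strand, in GRCh38.p14. Capitals mark a GC box (GGGCGG on either strand, the site of Sp1 family factors) or the E-box CAGCTG.
CHRNA7, chr15:32030233-32030432, plus strand: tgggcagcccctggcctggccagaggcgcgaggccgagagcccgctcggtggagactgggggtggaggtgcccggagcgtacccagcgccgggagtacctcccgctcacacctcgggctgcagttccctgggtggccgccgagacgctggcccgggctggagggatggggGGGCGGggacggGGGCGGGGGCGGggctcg
CHRNB4, chr15:78641261-78641460, minus strand: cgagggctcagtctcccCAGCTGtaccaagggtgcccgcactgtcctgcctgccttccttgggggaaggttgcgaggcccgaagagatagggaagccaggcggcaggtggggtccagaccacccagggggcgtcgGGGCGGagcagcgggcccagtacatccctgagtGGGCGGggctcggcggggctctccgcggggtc
CHRNB2, chr1:154567528-154567727, plus strand: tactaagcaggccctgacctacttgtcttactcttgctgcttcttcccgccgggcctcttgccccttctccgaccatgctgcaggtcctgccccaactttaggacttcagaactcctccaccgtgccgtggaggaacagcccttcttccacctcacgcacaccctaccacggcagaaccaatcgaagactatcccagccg
CHRM2, chr7:136868402-136868601, plus strand: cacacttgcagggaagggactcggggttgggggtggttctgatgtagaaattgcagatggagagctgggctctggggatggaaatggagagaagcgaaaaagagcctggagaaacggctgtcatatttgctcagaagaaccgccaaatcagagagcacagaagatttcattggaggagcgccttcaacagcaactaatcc
CHRM3, chr1:239386318-239386517, plus strand: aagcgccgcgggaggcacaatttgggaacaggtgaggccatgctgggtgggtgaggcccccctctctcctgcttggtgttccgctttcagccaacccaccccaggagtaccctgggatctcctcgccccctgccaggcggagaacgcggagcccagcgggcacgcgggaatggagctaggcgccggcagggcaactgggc

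The CHRNA7 window held 3 GC boxes and the CHRNB4 window 2, beside 1 CAGCTG; the windows of CHRNB2, CHRM2 and CHRM3 held neither motif. Of the 35116 RefSeq windows of the same length, 35.0% held a GC box and 11.2% held CAGCTG. The searches for the E-box CACGTG, the AP-1 site TGACTCA and the CRE TGACGTCA found no match in these 5 windows, against 4.51%, 3.23% and 0.951% of all windows. The table lists further starts for CHRNA7 and CHRM2, and the first listed is shown. In the other CHRNA7 window there were 5 GC boxes and 1 CACGTG, and 1 of the other CHRM2 windows held 1 GC box, so the matches depend on the start. In GENCODE 29 the CHRNA7 gene spans 31923438 to 32173018 and the CHRNB4 gene 78624119 to 78727754. The windows shown for these genes therefore lie inside the annotated genes, before internal RefSeq starts. The motif matches describe letters only.

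The summed gene counts lay between 5613144 and 8056550 per library, and 3 counts, taken as the floor, corresponded to between 0.372 and 0.534 counts per 1000000 (CPM). Precision is set by these counts, and the floor covers counting error only. A total of 14759 genes passed the filter on low counts, and 26.2% passed at an adjusted p-value under 0.05, with 13.6% higher and 12.6% lower in SNP; scaling to the read totals implied by the RPKM values turned the share of higher calls among all calls from 51.9% to 63.1%. Adjusted p-values here are edgeR quasi-likelihood p-values with the Benjamini-Hochberg correction across the whole table. The groups did not overlap in 64.0% of the genes tested.

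The identity of the cells was checked with marker lists. Of 10 adrenergic neuroblastoma markers, 9 were tested and TH, the first enzyme of catecholamine synthesis, was listed at 0 in all 4 libraries. The summed level of these markers was 2768 to 2848 CPM in control and 2084 to 2283 CPM in SNP libraries. Of the 9 tested, 1 rose and 7 fell, a share called of 88.9% beside 26.2% of all genes tested. These 9 were well counted, whereas the 26.2% includes weakly counted genes. In a fit of genes with a mean count of at least 50, 3750 of 11347 were called. Among the adrenergic markers that fell were DBH and PHOX2A, with log2 fold changes of -1.38 and -0.94. With offsets on length, GC content and guanine minus cytosine, they were at -1.06 and -0.36 and still passed (edgeR adjusted p-values 7.9e-06 and 0.0072). Mesenchymal markers summed to 385 to 437 CPM in control and 334 to 344 CPM in SNP libraries. Over all 4 libraries VIM lay at 127 to 214 CPM and TWIST1 at 136 to 156 CPM, so the sum rested largely on them. PRRX1 had at most 2 counts and YAP1 at most 8 in any library. Of the 6 mesenchymal markers tested, 1 was called (VIM, lower, at -0.59), a share of 16.7% beside the same 26.2%. With offsets on length, GC content and guanine minus cytosine, VIM was at -0.25 and did not pass (edgeR adjusted p-value 0.0652). Schwann and glial markers summed to at most 3.36 CPM, with SOX10 at 0, and blood, epithelial and endothelial markers to at most 3.75 CPM, with PTPRC, KRT5 and HBA1 at 0. The part of these marker shifts in the receptor values was not tested. In bulk RNA, fewer cells of a type and less RNA per cell cannot be told apart. Of 8 retinoic acid targets, STRA6 measured 211 to 252 CPM and CRABP2 15.6 to 19.8 CPM, RARB had 17 to 28 counts and CYP26A1 was at 0 in all 4 libraries. RARA and RET were the 2 called of 6 tested (33.3%, beside 26.2% of all genes), both lower, with log2 fold changes of -0.63 and -0.32. Neither passed with the same offsets, at -0.21 and -0.17 (edgeR adjusted p-values 0.239 and 0.120). RET also did not pass without control b, at -0.22 and 0.275, without SNP a, at -0.29 and 0.0624, or on RPKM-implied totals, at -0.25 and 0.278.

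Among the receptor genes, CHRNA7 and CHRM2 fell and none rose. Of the 10 genes, 9 passed the filter and were tested; 2 of the 9 were called, both lower, a share of 22.2% beside 26.2% of all genes tested. The median log2 fold change of the 9 was -0.19, against -0.0042 for all genes tested. In 6 of the 9 the groups did not overlap, beside 64.0% of all genes. The family as a whole thus differed about as often as the background.

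**Figure D1:**
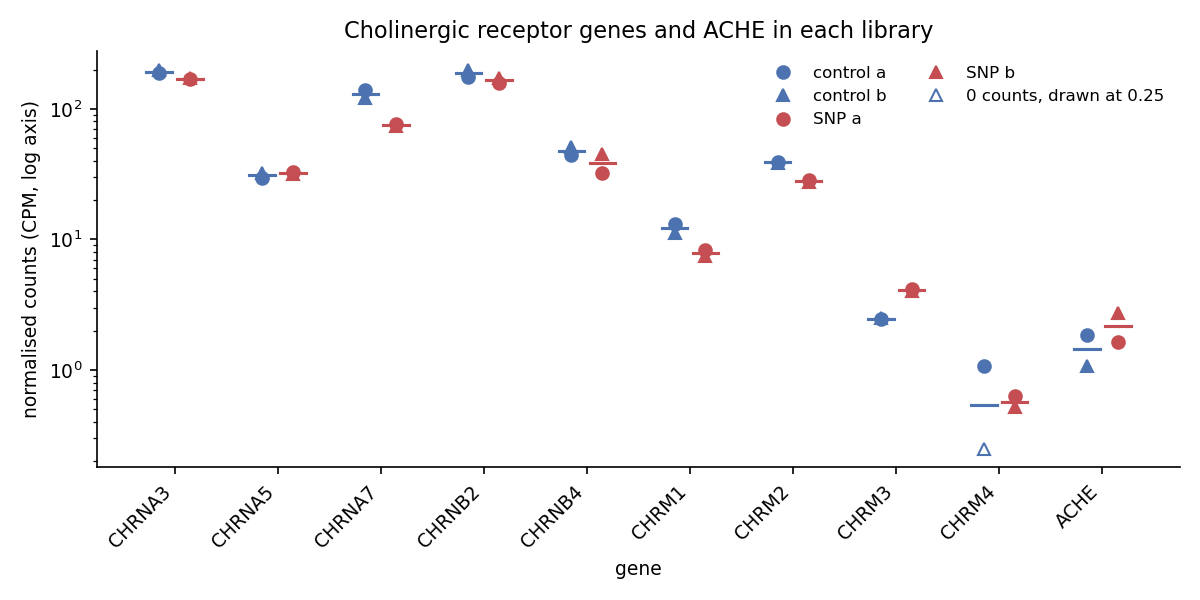
Normalised counts (CPM, log axis) of the 10 genes in each library; circles are replicate a, triangles replicate b, blue control, red SNP, horizontal lines group means, and the open triangle marks 0 counts. The 2 SNP points of CHRNA7 lie at 76.2 and 74.3 CPM, below the control points at 138 and 121 CPM.

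CHRNA7, the alpha7 subunit (ENSG00000175344; chromosome 15, 31923438 to 32173018, plus strand; this and all later gene positions are GRCh38 ones taken from GENCODE 29), had the lowest adjusted p-value of the family. Its level was 138 CPM in control a, 121 CPM in control b, 76.2 CPM in SNP a and 74.3 CPM in SNP b. Both SNP libraries were lower than both controls, and the SNP values were closer to each other than the control values were. The log2 fold change was -0.78 (SE 0.112), a level that fell by 41.9%, with an adjusted p-value of 3.4e-05 in edgeR's quasi-likelihood test. Ranked among all genes tested, this change stood at percentile 5.06. The call held in all 15 alternatives, with a log2 fold change between -0.88 and -0.55.

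CHRNA7 has a partial duplicate, CHRFAM7A, on the same chromosome (30357766 to 30393849, minus strand), whose exons are nearly identical to part of it, so reads can be split between both genes. CHRFAM7A had 14.8 CPM in control a, 13.3 CPM in control b, 13.1 CPM in SNP a and 7.89 CPM in SNP b. Its SNP replicates were far apart, and its log2 fold change of -0.42 did not pass (adjusted p-value 0.217, edgeR). Without SNP a, the library with the higher level, it was -0.83 and passed (edgeR adjusted p-value 0.0315). Added together, both genes gave 153, 134, 89.3 and 82.2 CPM in control a, control b, SNP a and SNP b. CHRFAM7A made up 9.77% of the control sum and 12.2% of the SNP sum, and the log2 ratio of the sums was -0.74.

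CHRNA3, the ligand-binding subunit of the ganglionic channel (ENSG00000080644; chromosome 15, 78593052 to 78621295, minus strand), had the highest summed count of the receptor genes. It measured 187 CPM in control a, 199 CPM in control b, 168 CPM in SNP a and 171 CPM in SNP b. Both SNP values were below both controls, by an amount close to the gap between the controls. The log2 fold change was -0.19 (SE 0.099), with a 95% interval of -0.39 to 0.018 that is not adjusted for the number of genes, and an edgeR adjusted p-value of 0.174.

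Its neighbours in the same gene cluster, CHRNA5 and CHRNB4, did not pass either. CHRNA5, an accessory subunit (ENSG00000169684; 78565520 to 78595269, plus strand), measured 29.5 and 32.2 CPM in the control and 32.9 and 31.8 CPM in the SNP libraries. The groups overlapped, and the log2 fold change was 0.069 (interval -0.24 to 0.38; edgeR adjusted p-value 0.779). CHRNB4, the beta4 subunit (ENSG00000117971; 78624119 to 78727754, minus strand), measured 44.5 and 51.4 CPM in control a and b, and 32.0 and 44.7 CPM in SNP a and b. The 2 SNP values were far apart and SNP b reached the level of control a. The log2 fold change was -0.32 (interval -0.64 to 0.0051; edgeR adjusted p-value 0.139). The result rested on the SNP library used: without SNP b it was -0.58 and passed (edgeR adjusted p-value 0.0080), and without SNP a it was -0.095 at 0.709.

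The ends of CHRNA3 and CHRNA5 share 198 exonic bases on opposite strands, and it is not stated whether the counting used strand, so reads there cannot be assigned. A further partner of CHRNA5, the antisense gene AC027228.2, had 0 counts in all 4 libraries, as did CHRM3-AS2 beside CHRM3. Outside the receptor genes, the cluster is flanked by IREB2, HYKK, PSMA4, ADAMTS7, MORF4L1 and CRABP1. Of these 6, MORF4L1 alone passed, a share of 16.7% beside 26.2% of all genes tested. MORF4L1 rose from 133 and 135 CPM in control to 215 and 182 CPM in SNP libraries. Its log2 fold change was 0.57 (edgeR adjusted p-value 5.0e-04). With offsets on length, GC content and guanine minus cytosine together, its log2 fold change was 0.0082 and did not pass (edgeR adjusted p-value 0.956); which of the 3 moved it was not tested.

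CHRNB2, the beta2 subunit found in most brain nicotinic channels (ENSG00000160716; chromosome 1, 154567781 to 154580026, plus strand), followed CHRNA3 closely in level. It measured 175 and 199 CPM in control a and b, and 158 and 172 CPM in SNP a and b. SNP b lay just under control a. The log2 fold change was -0.18 (interval -0.39 to 0.040; edgeR adjusted p-value 0.227).

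Levels of different genes were compared on the deposited TPM scale, which corrects for gene length. In control libraries CHRNA3 was highest at 191 ± 11.6 TPM, followed by CHRNB2 at 149 ± 15.5 TPM (SD, n = 2 throughout). CHRNB4, CHRNA7 and CHRNA5 came next at 45.4 ± 5.24, 45.4 ± 3.73 and 40.2 ± 3.03 TPM, with CHRNB4 overlapping both others. CHRM2 and CHRM1 followed at 22.1 ± 0.0607 and 17.6 ± 1.73 TPM. ACHE, CHRM4 and CHRM3 were lowest at 1.83 ± 0.675, 1.66 ± 2.35 and 0.957 ± 0.0179 TPM, and these overlapped with their neighbours in the order. In SNP libraries the order was the same except that CHRNA5, at 45.7 ± 0.407 TPM, stood above CHRNB4, at 39.7 ± 10.6 TPM, with which it overlapped, and CHRNA7 stood alone at 28.7 ± 0.435 TPM. The deposited values use a length of 13446 bases for CHRNA7, whereas its merged exons span 20978 bases in GENCODE 29, so its place in the order depends on the gene model.

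The 5 nicotinic subunits together measured 449 TPM in control a, 494 TPM in control b, 417 TPM in SNP a and 464 TPM in SNP b. On the TPM scale the groups overlapped, and the difference of -31.4 TPM gave an exact two-sided permutation p of 0.667. The smallest p that 2 against 2 libraries allow is 0.333. In TMM-scaled CPM the groups were apart for CHRNA3, CHRNA7 and CHRNB2 and overlapped for CHRNA5 and CHRNB4. In TPM they overlapped for CHRNA3 and CHRNB2 too, so the overlap of the sum is stated for TPM only. Within this sum the share of CHRNA7 was 10.7 and 8.66% in control and 6.81 and 6.25% in SNP libraries. The size of that share depends on the length of 13446 bases used for CHRNA7 in the deposited values. The share of CHRNA5 was 8.48 and 8.58% in control and 10.9 and 9.93% in SNP libraries. CHRNA3 kept a share of 40.3 to 42.3% in all 4 libraries, and CHRNB2 one of 30.8 to 33.1%. The ratio of CHRNA3 to CHRNA7 in TPM was 3.81 and 4.66 in control and 6.22 and 6.49 in SNP libraries, whereas that of CHRNA3 to CHRNB2 stayed between 1.23 and 1.32.

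**Figure D2:**
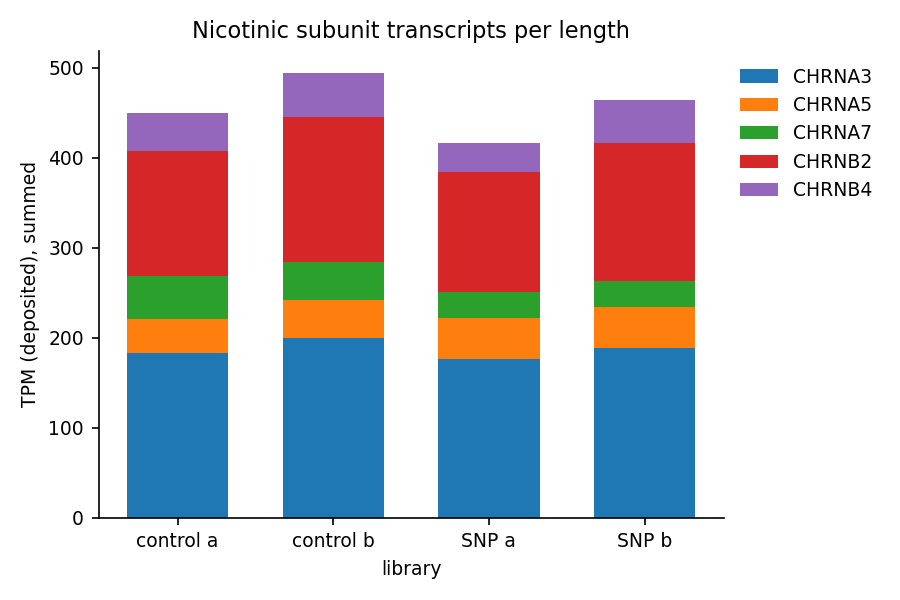
Deposited TPM of the 5 nicotinic subunits, stacked for each library, with a bar height equal to their sum. The bars reach 449, 494, 417 and 464 TPM in control a, control b, SNP a and SNP b, and the CHRNA7 segment is thinner in both SNP bars.

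The other nicotinic subunits were scarce. Of 12 further genes, CHRFAM7A included, 3 were tested and 0 were called by edgeR or by DESeq2. With edgeR this was a share of 0% beside 26.2% of all genes tested. The unadjusted edgeR p-values of CHRNB1, CHRNA10 and CHRFAM7A were 0.710, 0.485 and 0.0982, so 0 lay under 0.05. CHRNB1, the muscle-type beta1 subunit, measured 7.85, 8.68, 5.90 and 9.44 CPM, and CHRNA10, a hair-cell subunit, 4.46, 3.54, 4.39 and 5.17 CPM, in control a, control b, SNP a and SNP b; the groups overlapped for both. CHRNB1 shares 630 exonic bases with AC113189.4, which had counts of 0, 0, 6 and 16 in those libraries, and CHRNA10 shares 133 with NUP98. CHRNA4, the partner of beta2 in brain, had 0 counts in both controls and 5 and 11 counts in SNP a and b. The SNP mean of 1.02 CPM was 2.06 times a floor of 3 counts per control library. That figure allows for no counting error in the SNP libraries, and CHRNA4 was too weakly counted to be tested. CHRNA4 shares 394 exonic bases with AL121827.1, which had 0, 0, 0 and 2 counts in control a, control b, SNP a and SNP b. CHRNA2, CHRNA6, CHRNB3, CHRND and CHRNG were at 0 in all 4 libraries, and CHRNA1, CHRNA9 and CHRNE had at most 5 counts in any library.

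CHRM2, the M2 receptor (ENSG00000181072; chromosome 7, 136868669 to 137020255, plus strand), was the most counted muscarinic gene and fell. Its level was 39.4 and 38.8 CPM in control a and b and 28.7 and 27.5 CPM in SNP a and b. The replicates nearly coincided within each group and the groups did not overlap. The log2 fold change was -0.47 (SE 0.146), a fall by 28.0%, with an edgeR adjusted p-value of 0.0205. This call was less stable than that of CHRNA7. DESeq2's Wald test gave -0.47 with an adjusted p-value of 0.0879. Without control a or control b edgeR's adjusted p-values were 0.130 and 0.101.

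CHRM1, the M1 receptor (ENSG00000168539; chromosome 11, 62908679 to 62921807, minus strand), measured 13.1 and 11.2 CPM in control a and b and 8.29 and 7.50 CPM in SNP a and b. The groups did not overlap. Its log2 fold change of -0.62 (SE 0.241; interval -1.12 to -0.12, not adjusted) was larger than that of CHRM2 but rested on 58 to 85 counts per library, and the edgeR adjusted p-value was 0.0620.

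CHRM3, the M3 receptor (ENSG00000133019; chromosome 1, 239386565 to 239915452, plus strand), pointed the other way. It was counted 16 and 14 times in the controls against 33 and 31 times after SNP, or 2.46 and 2.48 against 4.14 and 4.01 CPM. The groups did not overlap, yet at this depth the log2 fold change of 0.72 (interval -0.12 to 1.55) did not pass, with an edgeR adjusted p-value of 0.200. The TPM ratio of CHRM2 to CHRM3 was 23.4 and 22.9 in control and 10.1 and 10.0 in SNP libraries. These ratios rest on 14 to 33 CHRM3 counts per library, so their closeness within a group does not measure their precision. CHRM4, the M4 receptor (ENSG00000180720; chromosome 11, 46385098 to 46386608, minus strand), was too scarce to test, with 7 and 0 counts in the controls against 5 and 4 after SNP. CHRM5, the remaining muscarinic receptor, had 3 to 6 counts per library.

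The base composition of the receptor genes is given beside their changes, and its part in them was not tested. Each gene's guanine minus cytosine content over its annotated transcripts was ranked among the genes tested: CHRM1 lay at percentile 2.23, CHRNB4 at 2.92, CHRNA3 at 7.75, CHRM2 at 15.4, ACHE at 15.8, CHRNA7 at 20.3, CHRNB2 at 24.8, CHRM3 at 31.7 and CHRNA5 at 67.8. With offsets on length, GC content and guanine minus cytosine, CHRNA7 still fell, by 0.55 on the log2 scale with an edgeR adjusted p-value of 0.0017. The offsets used its GENCODE 29 length of 20978 bases, not the 13446 bases of the deposited values, and the effect of that difference was not tested. CHRM2 moved to -0.20 at 0.283 and CHRM1 to -0.13 at 0.745, and neither passed. CHRNA3 turned to 0.16, CHRNB4 to 0.11 and CHRNA5 to -0.022, all without passing, while CHRM3 was at 0.84 and ACHE at 0.76, also not passing.

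**Figure D3:**
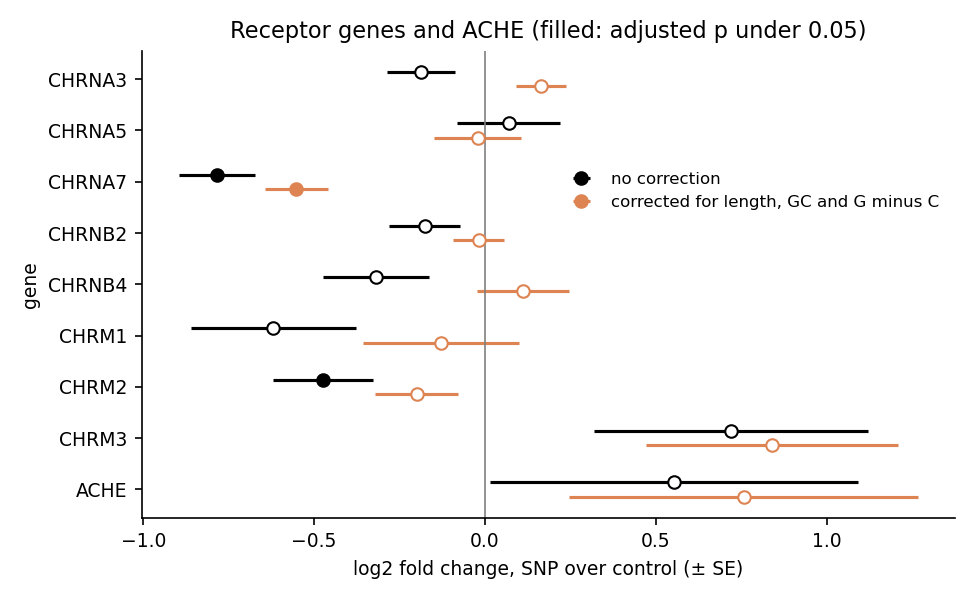
Log2 fold change of SNP over control for the 9 tested genes, with bars of 1 SE; black points are uncorrected, orange points carry offsets on length, GC and guanine minus cytosine, and filled points passed. CHRNA7 is filled in both fits (-0.78 and -0.55), CHRM2 in the uncorrected fit only, and CHRNA3, CHRNA5 and CHRNB4 change sign.

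ACHE itself was scarce (ENSG00000087085; chromosome 7, 100889994 to 100896974, minus strand). The controls a and b held 12 and 6 counts, and the SNP libraries a and b 13 and 21, or 1.85, 1.06, 1.63 and 2.71 CPM. The groups overlapped, and the log2 fold change of 0.55 had an interval of -0.57 to 1.67 and an edgeR adjusted p-value of 0.487, an interval that holds both no change and a rise of over 2-fold. PRIMA1, its membrane anchor (ENSG00000175785; chromosome 14, 93718298 to 93788481, minus strand), measured 39.7 and 36.3 CPM in control a and b and 17.4 and 19.5 CPM in SNP a and b. Both SNP values were under both controls. Its log2 fold change was -1.04 (SE 0.161; edgeR adjusted p-value 7.5e-05), and with the offsets it was -0.56 at 0.0128. In TPM, PRIMA1 exceeded ACHE 20.6 and 32.8 times in control and 10.2 and 6.89 times in SNP libraries, ratios that rest on 6 to 21 ACHE counts.

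The genes that make and load acetylcholine were sparse apart from the vesicular transporter. Of 10 genes for synthesis, transport and breakdown, 7 were tested, 2 fell (PRIMA1 and SLC18A3) and 0 rose, a share of 28.6% beside 26.2% of all genes, with a median log2 fold change of -0.29. SLC18A3, the vesicular acetylcholine transporter, measured 11.1 and 8.15 CPM in control and 4.52 and 6.21 CPM in SNP libraries, a log2 fold change of -0.85 (edgeR adjusted p-value 0.0341). It no longer passed without control a, at -0.60 and 0.300, without SNP a, at -0.64 and 0.194, or with DESeq2, at -0.84 and 0.153. With offsets on length, GC content and guanine minus cytosine it was -0.42 at 0.314, and did not pass. CHAT, which makes acetylcholine, had 1 or 2 counts in each library, SLC5A7, the choline transporter of cholinergic terminals, had 0 to 3, and BCHE, butyrylcholinesterase, had 5 to 9.

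Among proteins that assemble or modulate nicotinic receptors, LYNX1 stood out. LYNX1 (ENSG00000180155; chromosome 8, 142771197 to 142777810, minus strand) encodes a membrane-tethered relative of snake toxins that binds nicotinic receptors and dampens them. It measured 5.69 and 6.91 CPM in control a and b and 18.6 and 27.0 CPM in SNP a and b. Both SNP values were well above the controls although the SNP replicates differed. The log2 fold change was 1.86 (SE 0.239; edgeR adjusted p-value 1.1e-05), at percentile 99.1 of all genes tested, and with offsets it was 1.91. Part of LYNX1 is also annotated as the readthrough gene LYNX1-SLURP2, which has no row under that name in the tables used here. Of 14 genes in this list, 9 were tested, 1 rose and 0 fell, with a median of -0.064. The share called was 11.1%, beside 26.2% of all genes tested. The 2 alpha7 chaperones, chosen for naming after their values were seen, did not pass: RIC3 measured 79.5, 74.9, 85.1 and 93.5 CPM, and TMEM35A 8.00, 5.67, 3.77 and 4.27 CPM, in control a, control b, SNP a and SNP b. Their log2 fold changes were 0.21 and -0.77, with edgeR adjusted p-values of 0.188 and 0.0894.

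Genes downstream of the muscarinic receptors were called about as often as all genes tested. In the Gq arm, 4 of 15 tested genes fell and 0 rose, a share of 26.7% beside 26.2% of all genes, with a median of -0.22. PRKCE and PRKCA, protein kinase C isoforms, fell by 0.66 and 0.44 on the log2 scale, and KCNQ3, a subunit of the potassium channel that M1 receptors close, fell by 0.62 (edgeR adjusted p-values 5.0e-04, 6.5e-04 and 0.0106). KCNQ3 no longer passed without control a, at -0.44 and 0.224, with the offsets, at -0.45 and 0.0561, or with DESeq2, at -0.62 and 0.0530. PRKCA did not pass with the read totals implied by RPKM, at -0.37 and 0.0874. In the Gi arm, 2 of 13 fell and 2 rose, a share of 30.8% beside the same 26.2%, with a median of -0.16. GNAO1, the Go alpha subunit to which M2 and M4 couple, measured 177 and 163 CPM in control and 84.5 and 102 CPM in SNP libraries. Its log2 fold change was -0.87 (edgeR adjusted p-value 1.1e-05), and -0.45 at 0.0024 with offsets. GNAI3 and ADCY6 rose by small amounts, with log2 fold changes of 0.27 and 0.32; both failed in 8 of 14 alternatives. Of 7 receptor kinases and arrestins, GRK6 and GRK3 fell by 0.52 and 0.38 on the log2 scale and 0 rose, a share of 28.6% beside 26.2% of all genes, with a median of -0.33; GRK3 did not pass with the read totals implied by RPKM, at an edgeR adjusted p-value of 0.155.

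**Figure D4:**
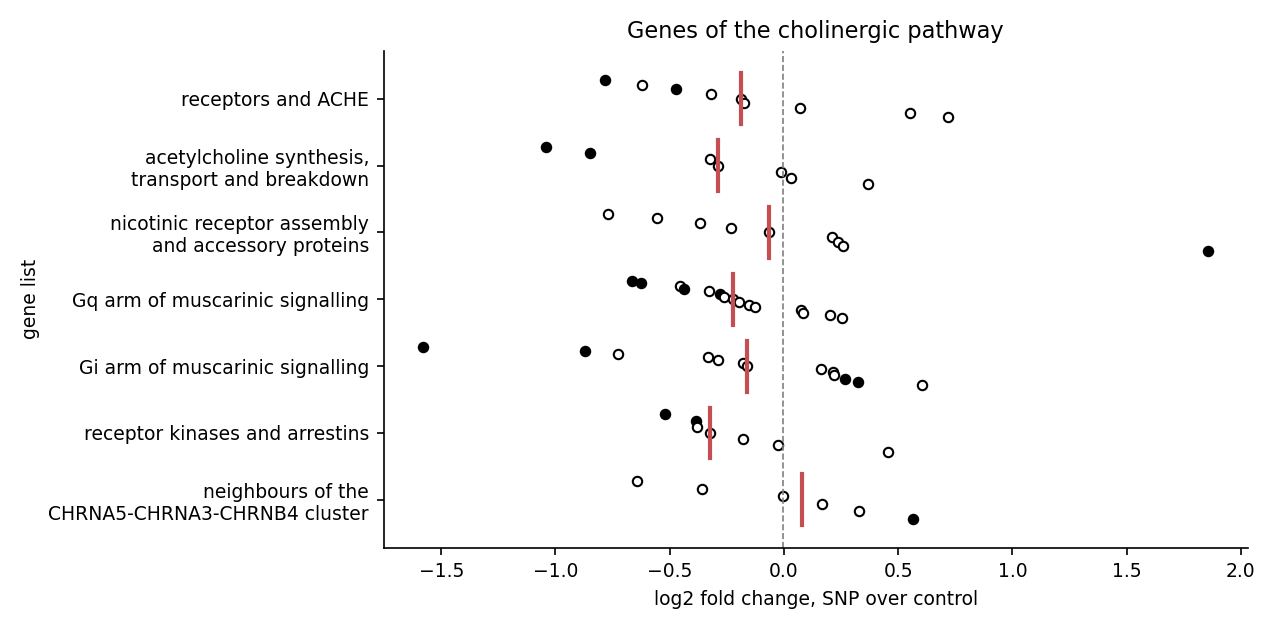
Log2 fold change of SNP over control for each tested gene, by list; filled points passed at an adjusted p-value under 0.05, red bars are list medians, and the dashed line is the median of all genes tested (-0.0042). LYNX1 is the lone point near 1.86, and the receptor kinases and arrestins have a median of -0.33.

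The genes closest to the most counted receptors across the 4 libraries were found by the distance between log2 CPM profiles centred on each gene's mean, among genes within 2-fold in mean level. For CHRNA3 these were PARP6, FBXO7 and HGS among 2518 candidates, at distances of 0.0146, 0.0203 and 0.0254. For CHRM2 they were HS3ST5, WBP2 and MARCH9 among 5121 candidates, at distances of 0.0172, 0.0252 and 0.0361. PARP6, for example, measured 124, 132, 110 and 113 CPM in control a, control b, SNP a and SNP b. With 4 libraries, a small distance describes little beyond a like difference between groups and replicates.

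**Figure D5:**
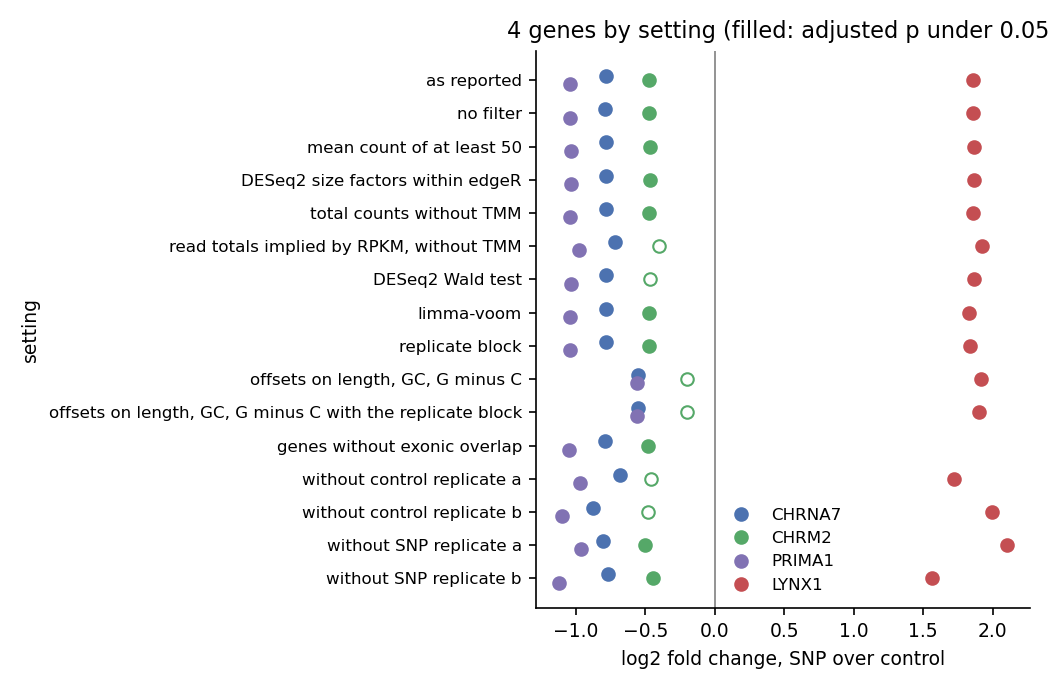
Log2 fold change of CHRNA7, CHRM2, PRIMA1 and LYNX1 under each processing setting, with filled points where the adjusted p-value was under 0.05. CHRNA7, PRIMA1 and LYNX1 are filled in every setting where they were fitted, LYNX1 being absent among genes without exonic overlap, and CHRM2 is open in 6 of 15 alternatives.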

How the data were processed

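RNA of 2 control and 2 SNP libraries of SH-SY5Y cells was sequenced with 75 bp reads, at a labelled depth of 40 M reads per sample, per the labels; groups and letters come from the sample titles. The authors deposited raw read counts per gene, TPM values that sum to 1000000 per library, and RPKM values whose implied read totals (48.7 to 62.0 M) exceed the summed counts. The build is GRCh38 per the submitters' processing notes; aligner and counter are not given in the sources used here. Of 58243 identifiers, 57980 were in GENCODE 29, which gave positions, lengths and base composition; gene lengths implied by count and RPKM matched it (within 0.001 of the length) for 89.9 to 90.0% of counted genes. Promoter windows came from RefSeq (GRCh38.p14) for 9 of the 10 genes.

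Counts were fitted with edgeR 4.0.16 in R 4.3.3: filterByExpr (minimum count 10, minimum total 15), TMM, quasi-likelihood test on all 4 libraries without covariate, Benjamini-Hochberg adjustment, threshold 0.05. CPM values carry the TMM factors. SE was derived from the log2 fold change and F, and 95% intervals from it. In the offsets, lowess curves per library (span 0.5) were fitted in 3 passes. Alternatives used DESeq2 1.42.0 and limma 3.58.1 (voom). Counts were also simulated with a single dispersion shared by all genes, and 196 of the 14715 genes tested were changed. Of the changed genes, with a log2 fold change of 1, 83.7% were called, and 4.65% of calls were false. Far more genes were called in the deposited data, so these rates need not carry over to them. Named were the receptor genes, the other nicotinic and muscarinic genes, and up to 3 called genes per list, where the mean CPM reached 5. Log2 fold changes were computed from the deposited counts. Some genes of the marker lists are not reported here. The genes and lists were chosen with earlier results of these data known.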

Additional observations from a re-analysis of the deposited data

How the results depend on the processing

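CHRNA7, PRIMA1 and LYNX1 stayed past the threshold in the same direction in all 15, 15 and 14 alternatives that could be fitted for them. The count of receptor genes called was 2; it was 1 with DESeq2's Wald test, with the read totals implied by RPKM, and with offsets on length, GC and guanine minus cytosine, with or without the replicate block, and it ranged from 1 to 3 when each library was left out. The count over all genes, 3861, was 2415 with DESeq2's Wald test, 2018 among the 7241 tested genes without exonic overlap, where fewer genes were tested, and 2471 to 4096 when each library was left out. With a replicate block it was 4487, and the receptor genes called were again CHRNA7 and CHRM2; across genes, the difference between a and b in control correlated at 0.050 with that in SNP, no label ties a letter to a shared experiment, and the block changed no call among the receptor genes. Signs turned with the offsets for CHRNA3 (0.16, and 0.16 with the replicate block), CHRNA5 (-0.022 and -0.022), CHRNB4 (0.11 and 0.10) and CHRNB1 (0.036 and 0.015), and for CHRNB1 also without SNP a (0.19, in a range of -0.48 to 0.19 when each library was left out); none of these passed. The summed nicotinic difference kept its sign in all 8 alternatives: -31.4 TPM as reported, -1.20 on the RPKM scale, -14.7 TPM without CHRNA7, -14.2 in TMM-scaled CPM per kilobase, and -12.7 with GENCODE 29 lengths, an alternative chosen after the data were examined; its log2 ratio was -0.10 in TPM and -0.22 in TMM-scaled CPM per kilobase. Leaving out each library gave -55.1 to -7.82 TPM, so its size rested on the library left out. DESeq2 gave no adjusted p-value for CHRM3 and ACHE. Depth limits CHRM3, CHRM4 and ACHE, counted at most 33 times per library.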
